A study of Mus musculus with 167 samples.

Results

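The BCL2 family decides whether a cell keeps its mitochondria intact or dies. Its guardians, such as BCL2, BCL-XL, MCL1 and A1, hold the effectors BAX and BAK in check, and the BH3-only proteins, such as PUMA, NOXA, BIM and BID, block the guardians or activate the effectors. Activated effectors open the outer mitochondrial membrane, cytochrome c leaves, and caspases are switched on. Lymphocytes, macrophages and neutrophils each rely on particular guardians, so in a tumour homogenate the family is read from tumour and blood cells together. The 10 genes described were taken by symbol from a table of 36118 genes: the guardians Bcl2, Bcl2l1, Mcl1 and Bcl2a1b, the effectors Bax and Bak1, and the BH3-only genes Bbc3, Pmaip1, Bcl2l11 and Bid. All 10 were present in the table and passed the filter on low counts in every fit.

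RNA-seq was done on 167 asbestos-induced tumours of 119 mice. The labels put 36 mice below and 83 mice above median survival. All mice of both classes were bred from Collaborative Cross males and MexTAg females, which carry the SV40 large T antigen, a viral protein that binds p53 and RB, under the promoter of mesothelin. All received 2 intraperitoneal injections of 3 mg crocidolite asbestos and no treatment. The crosses numbered 35 and are called strains here. Of these, 13 held mice of both classes, 6 held mice below median survival alone and 16 held mice above it alone. The sources used here give neither ages nor the value of the median.

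Tumour libraries held 11138491 to 35399287 estimated counts (median 22539831). Levels are given as CPM, counts scaled to library size. The 12 mesothelial marker genes summed to between 24.1 and 4144 CPM (median 281) in mice below and between 11.5 and 6014 CPM (median 371) in mice above median survival, and none of the 12 was at 0 in all mice. In 21 libraries over 1% of the counts came from marker genes of another tissue. In 6 libraries the genes that mark strains lay nearer to another strain than to the labelled one. Umod, a kidney gene, was above 2 CPM in all or all but 1 of the libraries of 8 strains (CC001, CC021, CC036, CC058, CC081, GIT, LAX and Piping, 28 mice, of which 7 were below median survival), a split that the labels do not name. Results that change without these libraries or within these strains are given with both values.

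Per kilobase of transcript, Mcl1 was the most abundant member and Bcl2 the least. By CPM without regard to length Mcl1 was also highest, but Bbc3 was lowest, with a median of 8.37 against 18.8 for Bcl2. Levels of different genes were compared as CPM per kilobase of the longest coding transcript (GENCODE M21 on GRCm38). On this scale the median over 119 mice was 85.4 for Mcl1, the short-lived guardian that most cell types need. It was 18.9 for Bcl2a1b, one of the mouse copies of the A1 guardian of blood cells, 16.7 for Bcl2l1, which encodes BCL-XL, and 2.61 for Bcl2, the founding member of the family. The effectors lay between Mcl1 and the other guardians, with medians of 34.8 for Bax and 30.4 for Bak1. The BH3-only genes were lower, with medians of 9.28 for Bcl2l11 (BIM), 7.91 for Pmaip1 (NOXA), 7.70 for Bid and 4.62 for Bbc3 (PUMA). Mcl1 made up 47.9% to 87.7% of the summed CPM of the 4 guardians (median 78.2%). The counts are per gene, so the long and short products of Bcl2l1 and Mcl1, which have opposite effects, cannot be told apart.

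In GRCm38 the guardians lie at chr1:106538178-106714274 on the minus strand (Bcl2, ENSMUSG00000057329), chr2:152780668-152831728 on the minus strand (Bcl2l1, ENSMUSG00000007659), chr3:95658788-95663176 on the plus strand (Mcl1, ENSMUSG00000038612) and chr9:89199209-89207827 on the plus strand (Bcl2a1b, ENSMUSG00000089929). The effectors lie at chr7:45461697-45466898 on the minus strand (Bax, ENSMUSG00000003873) and chr17:27019810-27029009 on the minus strand (Bak1, ENSMUSG00000057789). The BH3-only genes lie at chr7:16308393-16318205 on the plus strand (Bbc3, ENSMUSG00000002083), chr2:128126038-128162547 on the plus strand (Bcl2l11, ENSMUSG00000027381) and chr6:120891930-120916853 on the minus strand (Bid, ENSMUSG00000004446).

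Bcl2a1b has near-identical copies, Bcl2a1a and Bcl2a1d, so the division of reads among the 3 is uncertain. The first 150 of 519 coding bases of each copy are shown because they hold 7 of the 12 positions at which the copies differ. Capitals mark those positions, and the stretches lie at chr9:88957051-88957200 on the plus strand (Bcl2a1a), chr9:89199360-89199509 on the plus strand (Bcl2a1b) and chr9:88731570-88731719 on the minus strand (Bcl2a1d) of GRCm38.
Bcl2a1a: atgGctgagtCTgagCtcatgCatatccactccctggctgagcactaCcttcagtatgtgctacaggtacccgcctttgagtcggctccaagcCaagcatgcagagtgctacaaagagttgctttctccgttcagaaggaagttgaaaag
Bcl2a1b: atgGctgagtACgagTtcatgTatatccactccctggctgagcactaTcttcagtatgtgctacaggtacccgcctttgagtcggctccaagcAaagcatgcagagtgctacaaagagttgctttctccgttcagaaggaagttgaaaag
Bcl2a1d: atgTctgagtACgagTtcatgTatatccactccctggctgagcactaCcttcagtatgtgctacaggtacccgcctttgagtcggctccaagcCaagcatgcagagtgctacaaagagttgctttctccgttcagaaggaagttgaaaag
Coding identity was 98.8% between Bcl2a1b and Bcl2a1d, 97.9% between Bcl2a1b and Bcl2a1a, and 98.7% between Bcl2a1a and Bcl2a1d. Of the 31-base words of the Bcl2a1b transcript, 572 of 787 (72.7%) also occur in one of the other copies. Bcl2a1b took 39.1% to 94.7% of the summed counts of the 3 copies (median 66.7%).

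No member differed between the survival classes past the threshold. The lowest unadjusted p-values were those of 2 guardians, Mcl1 and Bcl2a1b, both with lower medians in mice below median survival. Bcl2a1b ran between 3.29 and 111.03 CPM (median 11.7) in mice below median survival, and between 1.92 and 193 CPM (median 17.8) in mice above it. Mcl1 ran between 192 and 537 CPM (median 280) in mice below and between 197 and 1147 CPM (median 296) in mice above. The classes overlapped over most of their range for both genes, and the highest mouse of each gene, LOX-E4 for Bcl2a1b and VIT-A2 for Mcl1, was above median survival. The log2 difference, below minus above, was -0.58 ± 0.26 (SE) for Bcl2a1b (edgeR quasi-likelihood test, unadjusted p = 0.0304, adjusted p = 0.450) and -0.21 ± 0.09 for Mcl1 (unadjusted p = 0.0266, adjusted p = 0.420).

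The other guardians and the death genes did not reach an unadjusted p of 0.05. Bcl2 ran between 7.66 and 153.3 CPM (median 17.5) in mice below and between 5.79 and 141 CPM (median 19.4) in mice above median survival, a log2 difference of -0.18 ± 0.18. Bcl2l1 ran between 15.8 and 159.3 CPM (median 43.5) in mice below and between 19.6 and 227 CPM (median 41.6) in mice above, a log2 difference of -0.10 ± 0.16. Among effectors, Bax had a median of 38.2 CPM in mice below and 38.3 CPM in mice above, and Bak1 one of 77.1 CPM in mice below and 70.1 CPM in mice above. These medians lay well inside the range of either class, which for Bak1 was 23.3 to 144.9 CPM in mice below and 20.5 to 207 CPM in mice above. Among BH3-only genes, Bbc3 had a median of 8.40 CPM in mice below and 8.20 CPM in mice above (log2 difference -0.22 ± 0.16), and Pmaip1 one of 19.8 CPM in mice below and 21.8 CPM in mice above. Bcl2l11 had a median of 42.4 CPM in mice below and 48.4 CPM in mice above, and Bid one of 19.03 CPM in mice below and 16.6 CPM in mice above. The adjusted p of these 8 genes ran between 0.781 and 0.994.

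In edgeR's quasi-likelihood test 0 of the 10 members passed an adjusted p of 0.05, where 1.56% of 17091 genes did (267 genes, 0.983% higher and 0.579% lower), and 0.852% without 1 mouse, TAS-I1. At an unadjusted p under 0.05 there were 2 members and 1541 genes. limma-voom passed 0 members and 0 genes, and DESeq2 0 members and 285 genes. The median log2 difference was -0.11 over the 10 members and -0.02 over all genes tested. Within the 8 strains with Umod and within the other 27 strains the count of members was also 0. Within those 8 strains, with 7 mice below and 21 above, the difference of Pmaip1 was -1.10 ± 0.45 (edgeR quasi-likelihood test, adjusted p = 0.726) and that of Bcl2 -0.60 ± 0.30 (adjusted p = 0.731), and within the others that of Pmaip1 was 0.14 ± 0.24 (adjusted p = 0.978). The lymphocyte level, the mean of a T cell level (mean log2 CPM of 15 markers) and a B cell level (12 markers), was 1.34 ± 1.83 in mice below and 1.69 ± 1.94 in mice above median survival (SD), and the median log2 difference was -0.73 over the T cell markers and -0.34 over the B cell markers. In whole tumours, fewer cells of a type and less RNA per cell cannot be told apart.

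**Figure D1:**
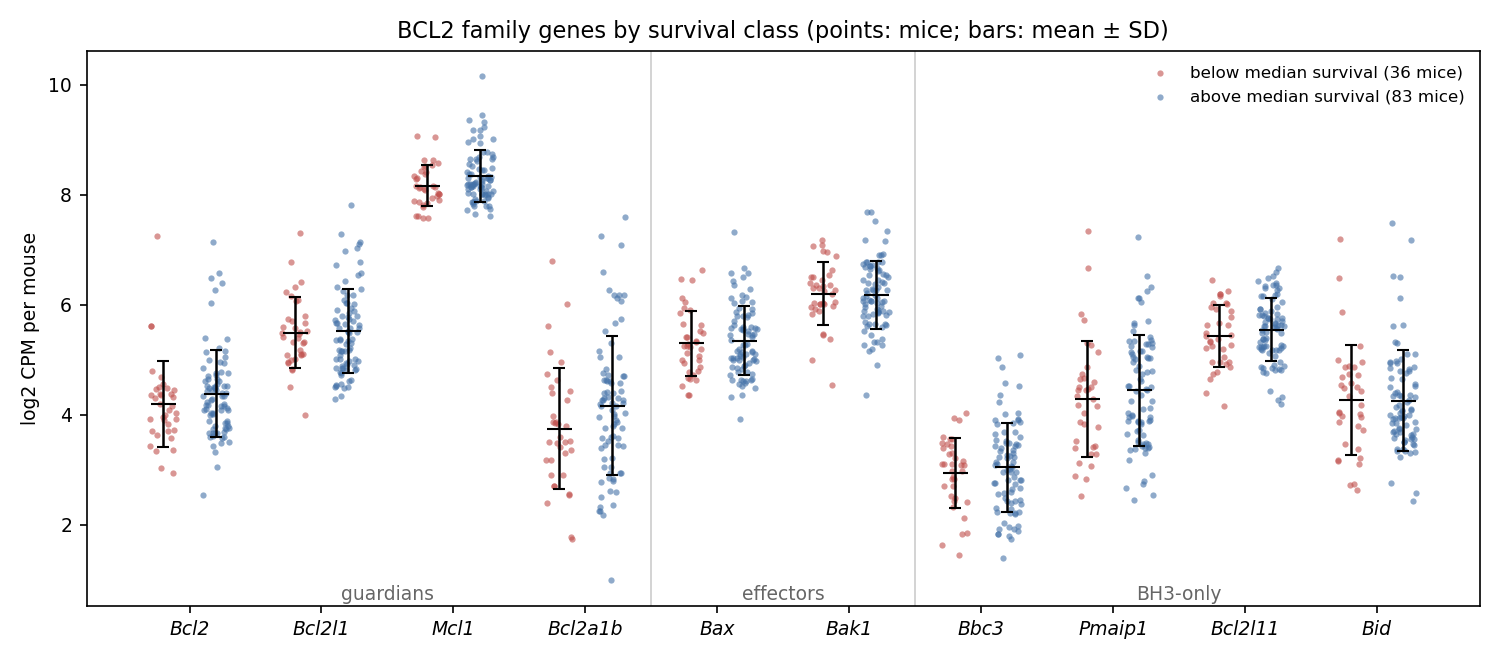
Log2 CPM of the 10 BCL2 family genes in each mouse, with mice below median survival (red) left of mice above it (blue). Points are mice, and black bars give the mean and SD of the 36 and 83 mice. For every gene the classes overlap over most of their range, and 0 of 10 genes passed the test.

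Strains are spread unevenly over the classes, so the contrast was repeated with strain held in the 13 strains with both classes (22 mice below, 35 above). Again no member passed. The log2 difference of Bcl2a1b was -0.87 ± 0.33 (edgeR quasi-likelihood test, unadjusted p = 0.0113, adjusted p = 0.408), that of Mcl1 -0.30 ± 0.12 (unadjusted p = 0.0173, adjusted p = 0.417), and that of Bbc3, which encodes PUMA, -0.42 ± 0.18 (unadjusted p = 0.0254, adjusted p = 0.423). Bcl2l1 had a difference of 0.14 ± 0.18, Bax of -0.23 ± 0.12 and Bid of -0.24 ± 0.23. Here 0 of 10 members passed where 0% of 16481 genes did. At an unadjusted p under 0.05 there were 3 members and 1867 genes, and DESeq2 passed 0 members and 65 genes. In the same fit the median log2 difference of the 12 B cell markers was -1.46 and that of the 15 T cell markers -1.001, with 0 of either list past the threshold. With lymphocyte and myeloid levels also held, 0 members passed. Without the 13 lymphocyte-rich mice described further on 0 members passed, and the difference of Bcl2a1b was -0.77 ± 0.33 (edgeR quasi-likelihood test, adjusted p = 0.395). Over the 7 alternatives run with strain held, the difference of Bcl2a1b ran between -0.92 and -0.37.

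A dependence of the contrast on strain was sought in 7 strains, each with at least 2 mice of either class (15 mice below, 22 above). Of the 10 members 0 passed where 0% of 16454 genes did, and at an unadjusted p under 0.05 there were 0 members and 1355 genes. limma-voom also passed 0 members. The lowest p was that of Pmaip1, which encodes NOXA (edgeR quasi-likelihood F-test, F = 2.17, unadjusted p = 0.0797, adjusted p = 0.672).

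Most members differed between strains. In the 25 strains with at least 3 mice (30 mice below and 73 above median survival), 8 of 10 members differed between strains, where 69% of 20687 genes did. Bid, which is cut by caspase-8 to carry the death receptor signal to mitochondria, had the largest F (6.89, edgeR quasi-likelihood F-test, adjusted p = 3.87e-10), followed by Bax (F = 4.71, adjusted p = 5.98e-07), Bak1 (F = 3.23, adjusted p = 0.000162) and Bbc3 (F = 3.14, adjusted p = 0.000227). Bcl2l1 (F = 2.88, adjusted p = 0.000626), Bcl2a1b (F = 2.73, adjusted p = 0.00115), Pmaip1 (F = 2.00, adjusted p = 0.0197) and Bcl2 (F = 1.78, adjusted p = 0.0434) also passed. Mcl1 (adjusted p = 0.213) and Bcl2l11 (adjusted p = 0.719) did not.

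The 8 calls were not equally firm. Bax, Bak1, Bbc3 and Bcl2l1 passed in 17 of 18 alternatives each, the exception being the fit within the strains with Umod. Within those strains 0 of 10 members passed, where 2351 of 18777 genes did. Within the other strains 7 members and 11584 of 20111 genes passed, Bcl2 being lost (edgeR quasi-likelihood F-test, adjusted p = 0.0502). Without the 13 mice of high lymphocyte level described further on, 5 members passed in 23 strains, where 11005 of 20246 genes did. In that fit Bid (F = 1.70, adjusted p = 0.0819), Bcl2a1b (F = 1.77, adjusted p = 0.0671) and Bcl2 (F = 1.31, adjusted p = 0.251) did not pass. With lymphocyte and myeloid levels held, Bcl2 (adjusted p = 0.716) and Bcl2a1b (adjusted p = 0.165) were lost and Bid was not. limma-voom passed 5 members, without Bcl2, Bcl2a1b and Pmaip1, and 10385 of 20687 genes. Over all 18 alternatives Bcl2 passed in 6, Pmaip1 in 13, Bcl2a1b in 14 and Bid in 16, and the adjusted p of Bid ran between 3.07e-10 and 0.641. Without the first mouse of each strain in the labels' order, and likewise without the fourth, 6 members passed, and Bcl2 and Pmaip1 were lost. In these fits 12949 of 21115 and 12100 of 20490 genes passed.

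The order of strains differed from gene to gene. Bid averaged 5.93 ± 1.22 log2 CPM in CC053 (SD, n = 6) and 5.81 ± 1.38 in CC044 (n = 7), and 3.20 ± 0.74 in VUX (n = 4). CC053 mice had 23.3, 23.4, 48.8, 90.6, 144 and 147.3 CPM of Bid, and the VUX mice 5.33, 6.59, 12.5 and 15.8 CPM. These 2 strains did not overlap, but the lowest CC044 mouse (9.01 CPM) lay among the VUX mice. YID and Boon came next in the order at 4.82 ± 0.41 and 4.80 ± 0.61, and all 3 neighbours CC053, CC044 and YID overlapped. Among the 13 mice of high lymphocyte level are 4 of the 6 CC053 mice and 5 of the 7 CC044 mice.

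Bax and Bak1 shared their lowest strain, CC001, one of the 8 strains with Umod. Bax averaged 6.07 ± 0.62 log2 CPM in CC044 (29.03 to 102.1 CPM, median 72.5) and 6.06 ± 0.40 in CC040 (44.4, 69.98, 77.9 and 82.4 CPM), and 4.48 ± 0.14 in CC001 (20.1, 22.4 and 24.4 CPM). All CC040 mice were above all CC001 mice for Bax. Bak1 averaged 6.88 ± 0.28 in Rogan (90.6, 120, 120 and 145.8 CPM) and 5.38 ± 0.45 in CC001 (29.9, 43.5 and 55.5 CPM), again without overlap. CC040 and Rogan are not among the strains with Umod, so these contrasts follow that split. Bax averaged 4.83 ± 0.38 log2 CPM in the strains with Umod and 5.49 ± 0.60 in the others (SD, n = 28 and 91 mice), and Bak1 5.72 ± 0.47 and 6.33 ± 0.56, and 6 of the 8 strains lowest in Bax and 5 of the 8 lowest in Bak1 hold Umod. Strain means of Bax ran between 4.48 and 5.19 within the strains with Umod and between 4.82 and 6.07 within the others. CC040 held the lowest mean lymphocyte level of the 25 strains, -0.29, where CC044 held the highest, 4.86.

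Bcl2l1 had its own order. It averaged 6.33 ± 1.05 log2 CPM in LOX (32.3 to 227 CPM, median 76.3, n = 7) and 6.31 ± 0.59 in CC040 (55.4, 64.4, 78.2 and 141 CPM), and 4.73 ± 0.38 in KAV (22.5, 22.9 and 36.1 CPM). CC040 thus held high Bcl2l1 beside the lowest mean Bcl2a1b of the 25 strains with at least 3 mice, 2.13 ± 0.97 (1.92, 3.29, 6.02 and 9.14 CPM). Bcl2a1b was highest in CC044 at 5.40 ± 1.70, with 6.47 to 136 CPM (median 48.9), and 1 of its mice lay within the range of CC040. Bcl2 was highest in CC044 too, at 5.11 ± 1.36 (12.7 to 153.3 CPM, median 27.2), and lowest in TAS at 3.50 ± 0.35 (7.66 to 15.1 CPM, median 11.6).

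Among BH3-only genes, Pmaip1 (ENSMUSG00000024521, chr18:66458533-66465565 on the plus strand of GRCm38) averaged 5.77 ± 1.51 log2 CPM in VUX (14.8, 39.7, 92.3 and 163 CPM) and 5.67 ± 0.64 in CC058 (32.9, 49.8 and 80.4 CPM), and 3.40 ± 0.92 in Rogan (5.38, 7.39, 13.1 and 22.9 CPM). CC058 and Rogan did not overlap for Pmaip1, whereas VUX, with the highest mean, overlapped Rogan. VUX thus held the highest mean of Pmaip1 and the lowest of Bid. Bbc3 averaged 3.76 ± 0.71 in LOX (6.74 to 33.8 CPM, median 14.6) and 1.97 ± 0.50 in CC060 (2.57, 4.63 and 4.84 CPM). For the genes that did not pass, strain means ran between 7.95 ± 0.28 (MEE) and 8.60 ± 0.42 (Piping) for Mcl1, and between 5.10 ± 0.16 (CIS) and 6.17 ± 0.37 (CC060) for Bcl2l11.

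**Figure D2:**
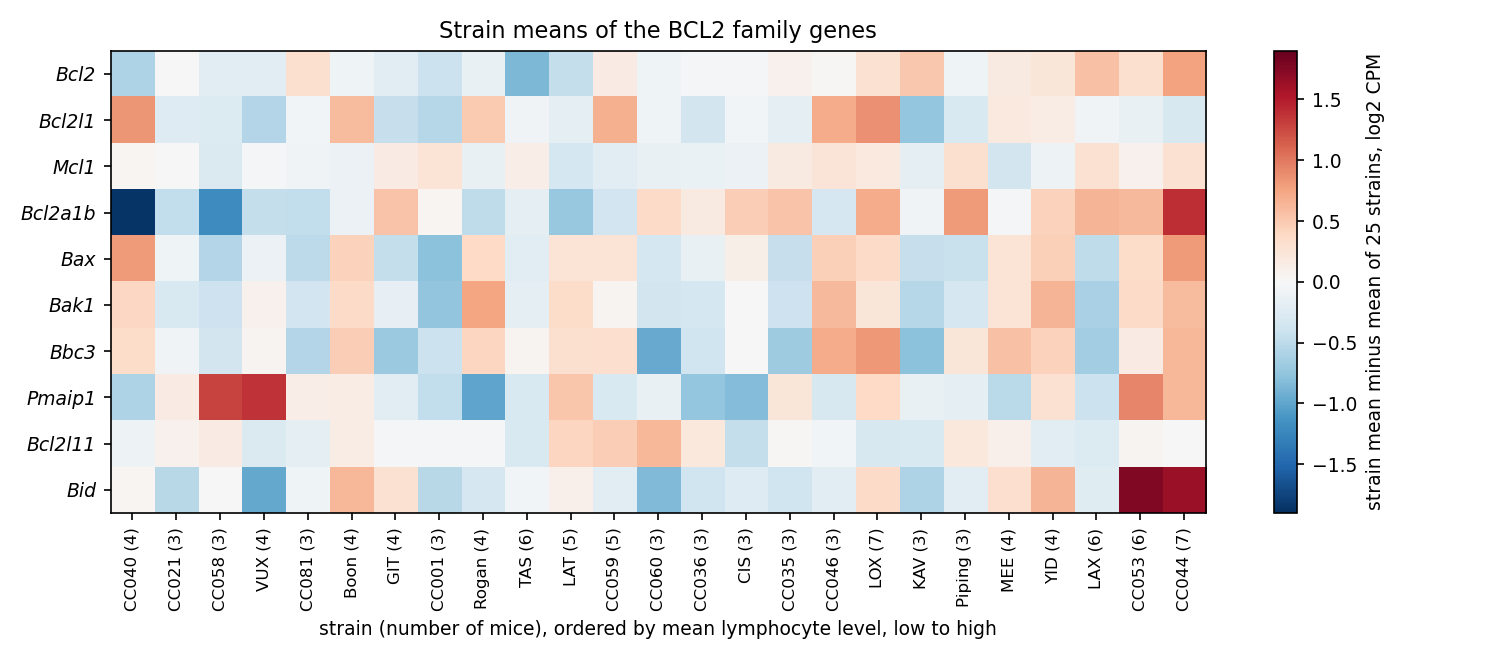
Strain means of log2 CPM of the 10 genes in the 25 strains with at least 3 mice (number of mice in brackets), each row minus its mean over strains. Strains run from the lowest mean lymphocyte level (CC040) to the highest (CC044). Bid stands out in CC053 and CC044, Pmaip1 in CC058 and VUX, and Bcl2a1b is lowest in CC040.

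The share of the variance among mice that lay between strains was 56.6% for Bax, 53.3% for Bid, 49.6% for Bak1, 46.9% for Bbc3, 38.5% for Bcl2l1, 35.0% for Bcl2a1b and 31.9% for Pmaip1. It was 25.6% for Mcl1, 23.9% for Bcl2 and 20.5% for Bcl2l11, and the median over 15835 genes was 36.5%. Of the 10 members 5 lay above that median and 5 below it. For 90% of genes the share lay between 20.9% and 57.2%, a range that holds all members but Bcl2l11. The share is not corrected for the number of strains, so part of it arises even where strains do not differ.

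Between tumours of the same mouse, Pmaip1 varied more than the other members. Over 35 mice with several tumours (83 tumours), the SD of log2 CPM between tumours of a mouse was 0.94 for Pmaip1, 0.68 for Bcl2a1b and 0.64 for Bcl2, and 0.26 for Mcl1, 0.29 for Bak1 and 0.33 for Bax. For Pmaip1 the SD between mice of a strain was 1.00. Without the 6 mice that hold a library nearer to another strain, the SD of Pmaip1 was 0.81 between tumours of a mouse and 1.03 between mice of a strain. Mouse LAT-D3 had 82.4 CPM of Pmaip1 in the tumour nearer to LOX and 6.61 to 14.97 CPM in its other 3, and mouse LOX-D1 had 6.11 CPM in the tumour nearer to LAT and 67.7 CPM in the other. Mouse LOX-B4 had 3.58 CPM of Pmaip1 in one tumour and 58.8 CPM in the other, a 16.4-fold difference. The 3 tumours of mouse CC059-E2 ran between 9.89 and 84.6 CPM of Bcl2 (8.55-fold). In mouse Rogan-C3, Bcl2l1 was 207 CPM in the tumour whose strain-marking genes lay nearer to CC046 and 31.3 CPM in the other.

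Lymphocyte-rich tumours held more Bid, Bcl2a1b and Bcl2 and less Bcl2l1. Lymphocyte level is on a log2 scale, so a slope is a log2 change per log2 unit. Bid rose by 0.31 ± 0.03 per unit (SE, edgeR quasi-likelihood test, adjusted p = 1.69e-17), Bcl2a1b by 0.38 ± 0.04 (adjusted p = 1.92e-13) and Bcl2 by 0.28 ± 0.03 (adjusted p = 3.10e-16). Bcl2l1 went the other way, with a slope of -0.16 ± 0.04 (adjusted p = 5.94e-05). Bax (0.08 ± 0.03, adjusted p = 0.00786) and Bbc3 (0.08 ± 0.03, adjusted p = 0.0298) had small positive slopes. Mcl1 (0.05 ± 0.02, adjusted p = 0.0656), Bak1 (0.06 ± 0.03, adjusted p = 0.0689), Pmaip1 (0.03 ± 0.05, adjusted p = 0.619) and Bcl2l11 (-0.04 ± 0.03, adjusted p = 0.240) did not pass.

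In all, 6 of 10 members passed, a share close to the 53.7% of 17091 genes that did. Of the members 5 rose and 1 fell, against 23.2% and 30.5% of all genes, and the median slope was 0.07 over the members and -0.02 over all genes. Within the strains with Umod 2 members passed, Bcl2 (0.27 ± 0.05) and Bcl2a1b (0.52 ± 0.09), where 2384 of 17304 genes did. Within the other strains 5 members and 8826 of 16779 genes passed, Bbc3 being lost (edgeR quasi-likelihood test, adjusted p = 0.0928).

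Several of these slopes rested on 13 mice with a lymphocyte level over 5, the lowest of which was at 5.71, while the next mouse below was at 4.90. They are 5 CC044 mice, 4 CC053 mice and 1 each of LAX, LOX, MEE and YID, of which 3 were below and 10 above median survival. Mouse MEE-A3 is one of them, and its tumour with strain-marking genes nearer to CC044 had 80.6 CPM of Bid where its other tumour had 14.3 CPM. Bid ran between 22.7 and 179 CPM (median 69.5) in the 13 mice, and between 5.33 and 40.2 CPM (median 15.9) in the other mice. Bcl2 ran between 12.7 and 153.3 CPM (median 49.1) in the 13 and between 5.79 and 65.2 CPM (median 17.9) in the others. Bcl2l1 stayed between 23.1 and 47.96 CPM (median 32.3) in the 13, and ran between 15.8 and 227 CPM (median 45.4) in the others. The ranges overlapped for all 3 genes, but no mouse outside the 13 exceeded 40.2 CPM of Bid. The LAX, LOX and YID mice among the 13 did not exceed it either. Every mouse above that value was thus of CC044, CC053 or MEE, so lymphocyte level and strain overlap among the 13.

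Without these 13 mice 2 members passed, where 3742 of 16930 genes did. In all mice 6 members and 9179 of 17091 genes had passed, so the count fell over all genes too. Bcl2a1b rose by 0.29 ± 0.09 per unit (edgeR quasi-likelihood test, adjusted p = 0.00927) and Bcl2l1 had a slope of -0.21 ± 0.07 (adjusted p = 0.0213). The slope of Bcl2 was 0.11 ± 0.05 (adjusted p = 0.0742), and that of Bid 0.03 ± 0.05 (adjusted p = 0.757). Those of Bax (-0.06 ± 0.05) and Bbc3 (-0.11 ± 0.07) turned negative and did not pass. Over 11 alternatives the adjusted p ran up to 0.00927 for Bcl2a1b, 0.0742 for Bcl2, 0.264 for Bcl2l1 and 0.757 for Bid. Bcl2a1b passed in 11 of them, Bcl2 and Bcl2l1 in 10 each and Bid in 9, the fit with strain held being among these.

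**Figure D3:**
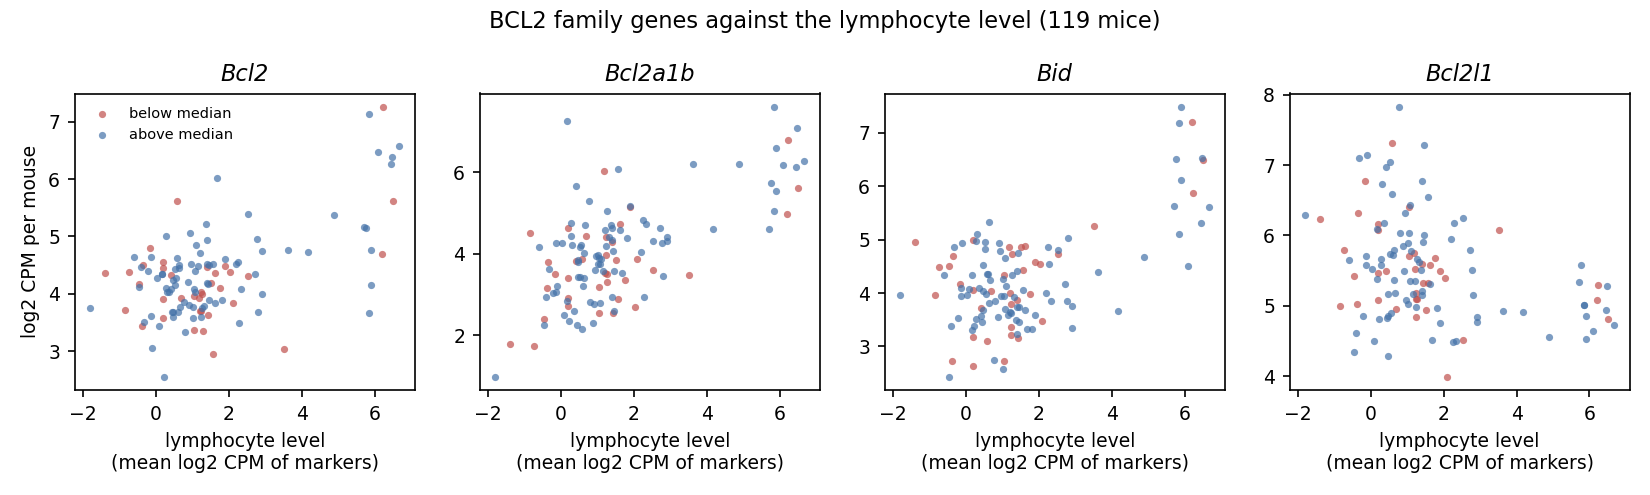
Log2 CPM of Bcl2, Bcl2a1b, Bid and Bcl2l1 in each of 119 mice against the lymphocyte level. Mice below median survival are red and mice above it blue. The 13 mice with a level over 5 stand apart on the right, with at most 47.96 CPM of Bcl2l1. Their median of Bid is 69.5 CPM, where the other mice reach at most 40.2 CPM. The LAX, LOX and YID mice among the 13 do not exceed 40.2 CPM of Bid either.

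Among the 13 lymphocyte-rich mice, the 3 highest in Bid were not the 3 highest in Bcl2, and the mice given here were chosen after their values were seen. Mouse CC053-H1, with the highest B cell level (7.76) and a T cell level of 3.96, had 144 CPM of Bid and 12.7 CPM of Bcl2. Mouse CC044-I2, with a B cell level of 7.28 and a T cell level of 4.53, had 179 CPM of Bid and 17.8 CPM of Bcl2. Mouse YID-E1, with a T cell level of 6.19 and a B cell level of 6.72, had 39.4 CPM of Bid and 77.3 CPM of Bcl2. Mouse CC044-J3, the highest of all in Bcl2 at 153.3 CPM, had a T cell level of 5.24, a B cell level of 7.23 and 58.7 CPM of Bid. Mouse LOX-E4 (T cell level 5.18, B cell level 6.51) had 34.4 CPM of Bid and 141 CPM of Bcl2, and mouse LAX-K2 (T cell level 5.49, B cell level 6.69) had 22.7 CPM of Bid and 89.2 CPM of Bcl2. Mouse CC044-F4, with high levels of both (T cell level 5.72, B cell level 7.24), had 91.6 CPM of Bid and 83.7 CPM of Bcl2.

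A fit with both levels was added after these values had been seen. Bcl2 rose by 0.34 ± 0.08 per log2 unit of T cell level with B cell level held (edgeR quasi-likelihood test, adjusted p = 0.000945), and its slope on B cell level with T cell level held was -0.02 ± 0.06 (adjusted p = 0.867). Bid had slopes of 0.02 ± 0.09 on T cell level (adjusted p = 0.919) and 0.25 ± 0.06 on B cell level (adjusted p = 0.00239). Bcl2a1b followed T cell level (0.38 ± 0.12, adjusted p = 0.0238) and not B cell level past the threshold (0.05 ± 0.10, adjusted p = 0.787). Of the 10 members 2 passed on T cell level, where 15.2% of genes did, and 1 on B cell level, where 17.1% did. The T and B cell levels overlapped as covariates, with a Pearson r of 0.889 over the 119 mice of the fit, of which 13 stand apart, and of 0.72 without those 13.

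Without the 13 mice the slope of Bcl2 on T cell level was 0.21 ± 0.07 (adjusted p = 0.0296), and that of Bid on B cell level was -0.02 ± 0.06 (adjusted p = 0.881). Bcl2a1b on T cell level no longer passed (0.32 ± 0.13, adjusted p = 0.108). Among the 13 mice alone, Bcl2 had a slope of 1.06 ± 0.35 on T cell level (unadjusted p = 0.0102, adjusted p = 0.275), and Bid one of 1.52 ± 0.46 on B cell level (unadjusted p = 0.00557, adjusted p = 0.192), with 0 members past the threshold in either edgeR fit. At an unadjusted p under 0.05 each gene was the only member so placed on its level. No fit on both levels held strain. Among the 13, B cell level was 6.89 to 7.76 in the CC044 and CC053 mice. It was 6.51 to 6.97 in the LAX, LOX, MEE and YID mice. B cell level and strain thus overlap there, and their parts in the slope of Bid cannot be told apart.

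**Figure D4:**
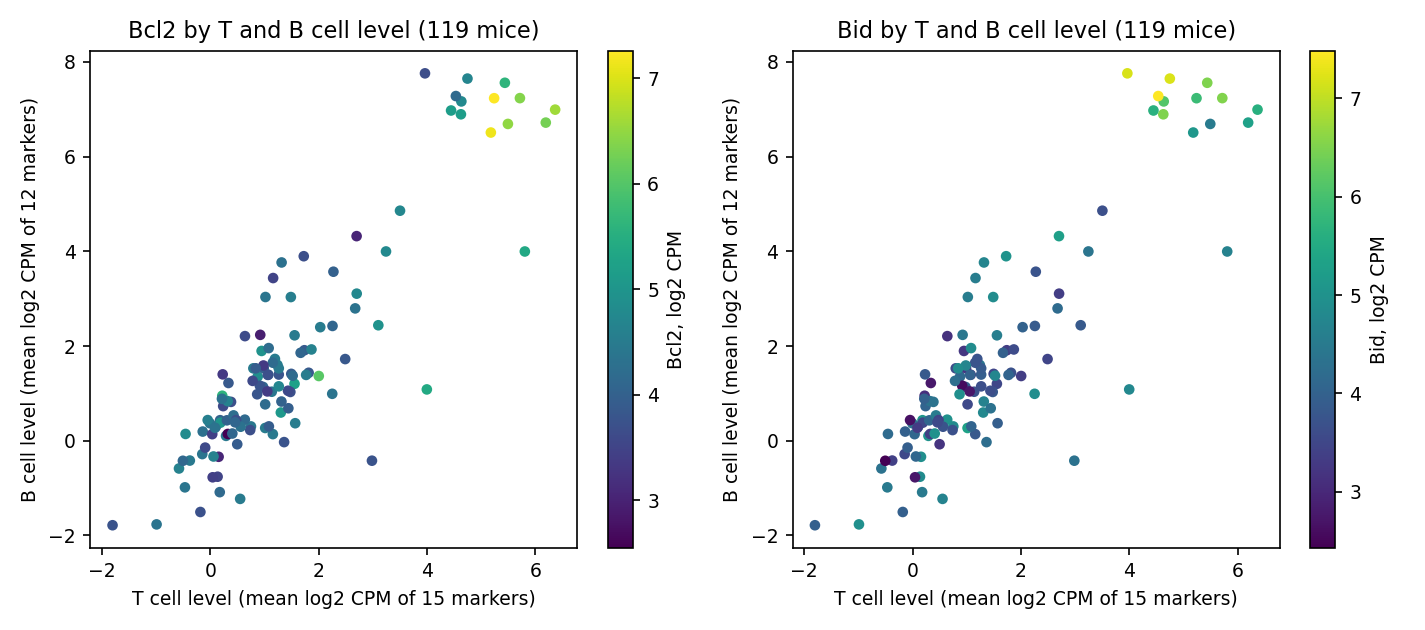
T cell level (x) and B cell level (y) of the 119 mice, each point coloured by log2 CPM of Bcl2 (left) or Bid (right). In the group of 13 mice at the upper right, the 2 mice highest in Bcl2 are CC044-J3 and LOX-E4. Their T cell levels are 5.24 and 5.18, near the middle of the 13. The 3 highest in Bid are CC044 or CC053 mice, with B cell levels of 7.28 or more.

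Myeloid level, the mean of the macrophage and neutrophil levels, was followed by 1 member. Mcl1, on which neutrophils depend for survival, rose by 0.25 ± 0.06 per log2 unit (edgeR quasi-likelihood test, adjusted p = 0.000970), where 20% of 17091 genes passed, 8.63% higher and 11.4% lower. Bcl2a1b had a slope of 0.37 ± 0.19 (adjusted p = 0.164) and Bid one of -0.27 ± 0.14 (adjusted p = 0.169). The other 7 had slopes between -0.11 and 0.17. The myeloid level was 4.60 ± 0.55 in mice below and 4.45 ± 0.71 in mice above median survival (SD). The slope of Mcl1 held within the strains with Umod (0.34 ± 0.11, adjusted p = 0.0470) and within the others (0.23 ± 0.07, adjusted p = 0.0197), but on neutrophil level alone it was 0.08 ± 0.04 (adjusted p = 0.221).

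Bcl2a1b, which did not pass in the main fit on myeloid level, passed in 4 of 11 alternatives. Its slope was 0.58 ± 0.13 with lymphocyte level held (edgeR quasi-likelihood test, adjusted p = 0.000279), 0.81 ± 0.14 without the 13 lymphocyte-rich mice (adjusted p = 4.78e-06) and 0.46 ± 0.13 on macrophage level alone (adjusted p = 0.00747). Its slope was 1.15 ± 0.26 within the strains with Umod (adjusted p = 0.00488) and 0.12 ± 0.23 within the others (adjusted p = 0.780). On the same myeloid level 10 of 12 B cell markers were lower, with a median slope of -1.55. Bid on macrophage level alone was -0.46 ± 0.12 (adjusted p = 0.00220).

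The A1 copies moved together with Bcl2a1b. Per log2 unit of lymphocyte level Bcl2a1d rose by 0.68 ± 0.04 and Bcl2a1a by 0.58 ± 0.05 (edgeR quasi-likelihood test, adjusted p = 1.03e-33 and 1.82e-22). With the counts of the 3 copies summed into 1 gene, the slope was 0.48 ± 0.04, the survival difference -0.57 ± 0.29 (adjusted p = 0.567) and the strain test F = 3.69 (adjusted p = 2.76e-05). In CC044, the strain highest in Bcl2a1b, that copy held a median of 44.6% of the summed counts and Bcl2a1d 37.7%, against medians of 66.7% and 18.7% over all mice. Lymphocyte-rich mice of other strains had low shares of Bcl2a1b too, 45.1% in YID-E1, 45.6% in LAX-K2, 47.6% in LOX-E4 and 49.01% in MEE-A3. In the 4 lymphocyte-rich CC053 mice the share ran between 52.8% and 62.6%. It was 56.7% and 59.6% in CC044-D3 and CC044-F2, which are not lymphocyte-rich. Low shares also occurred in CC060-H2 (46.7%) and LAX-E2 (47.8%), which are not lymphocyte-rich either. Whether reads or RNA shifted between copies was not tested.

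The promoter of Bcl2a1b is shown because the gene followed blood-cell levels, and 8 bases read by PU.1, a factor of myeloid cells and B cells, occur in it. The motif letters GAGGAAGT were searched on both strands of the 250 bases before and 50 bases after each RefSeq gene start, and 1052 of 32851 such promoters (3.20%) hold them. Promoters were matched for 9 of the 10 members, and 2 of these hold the letters, Bcl2a1b and Bak1, as do Bcl2a1a and Bcl2a1d. The sequence is chr9:89199023-89199322 on the plus strand of GRCm38.p6 (RefSeq), with the motif in capitals.
Bcl2a1b promoter: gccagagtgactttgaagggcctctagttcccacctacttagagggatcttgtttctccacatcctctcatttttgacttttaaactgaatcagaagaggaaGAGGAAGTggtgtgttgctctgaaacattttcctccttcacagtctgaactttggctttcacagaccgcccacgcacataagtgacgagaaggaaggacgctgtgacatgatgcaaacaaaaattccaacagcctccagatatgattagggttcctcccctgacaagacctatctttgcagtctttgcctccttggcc
A match of letters is no evidence of binding in these tumours.

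The balance of guardians and death genes was described per mouse as the mean log2 CPM of the 4 guardians minus that of the 6 effectors and BH3-only genes. It was 0.66 ± 0.57 in mice below and 0.80 ± 0.59 in mice above median survival (SD, n = 36 and 83), a difference of -0.14 that is smaller than either SD. As the log2 ratio of summed CPM the difference was -0.11, and without Bcl2a1b it was -0.06. Mice ran between -0.48 (LAT-E2) and 2.29 (TOFU-K2), both above median survival. No p is given for this score, since its members were chosen with results of these data known.

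Strain means of the balance ran between 0.04 ± 0.48 in LAT (SD, n = 5) and 1.59 ± 0.39 in LAX (n = 6). In LAT the guardian mean was 5.11 ± 0.46 and the death gene mean 5.07 ± 0.22 log2 CPM. In LAX the guardian mean was 5.88 ± 0.69 and the death gene mean 4.30 ± 0.46 log2 CPM, so LAX was higher in guardians and lower in death genes. LAX is among the strains with Umod and LAT is not. The balance averaged 1.04 ± 0.51 in the strains with Umod and 0.67 ± 0.58 in the others (SD, n = 28 and 91), with strain means between 0.28 (CC058) and 1.59 (LAX) within the strains with Umod and between 0.04 (LAT) and 1.21 (CC035) within the others. All 6 LAX mice lay above all 5 LAT mice. CC044 was high on both sides, with 6.06 ± 0.77 for guardians and 5.46 ± 0.58 for death genes, and its balance of 0.60 ± 0.56 was below the mean of 0.76 over all mice. Per log2 unit of lymphocyte level the balance changed by 0.04, as the ratio of summed CPM by -0.01, and without Bcl2a1b by -0.05, so its direction turned with the way it was computed.

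**Figure D5:**
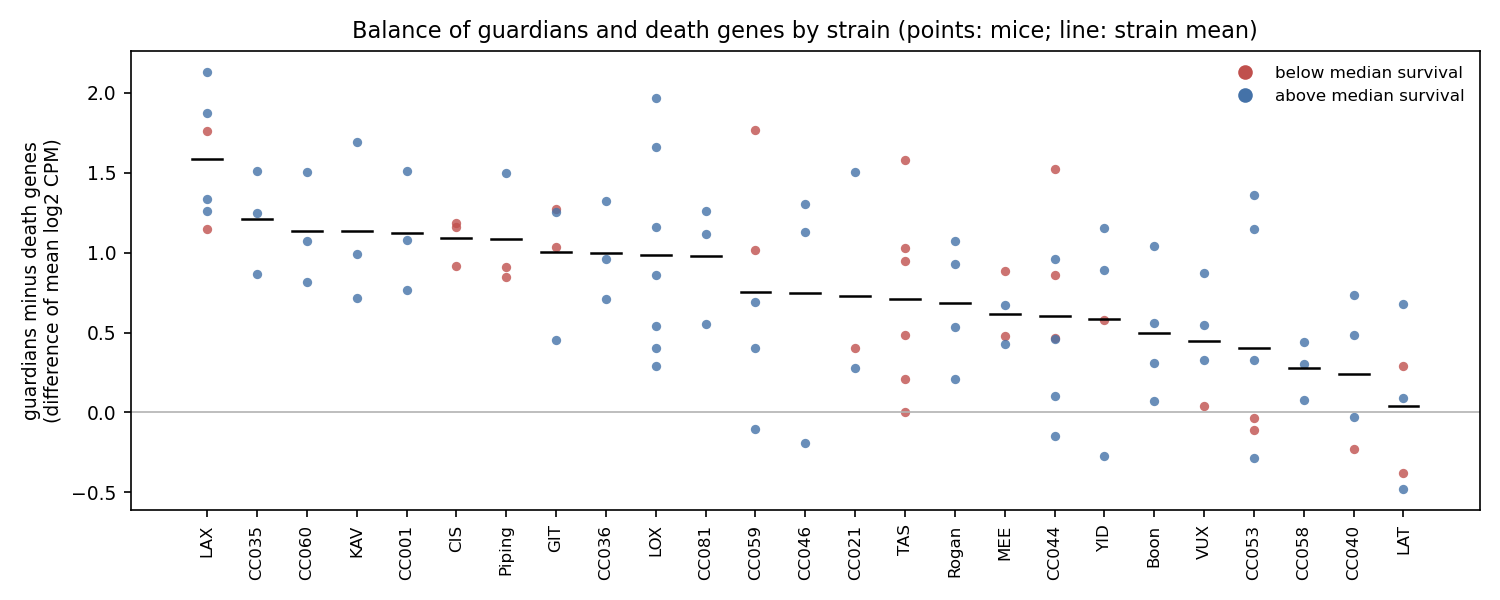
Balance (mean log2 CPM of 4 guardians minus that of 6 death genes) by strain for the 25 strains with at least 3 mice, ordered by mean. Points are mice, red below and blue above median survival, and black lines are strain means. Means fall between 1.59 in LAX and 0.04 in LAT, and both classes are spread along the order.

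Within the death arm, both effectors and Bbc3 varied together, and Pmaip1 and Bcl2l11 did so little. Across mice, Bax and Bak1 had a Spearman rho of 0.74 (119 mice; 0.70 without the 13 lymphocyte-rich mice), Bax and Bbc3 one of 0.69 (0.62) and Bak1 and Bbc3 one of 0.57 (0.50). Pmaip1 had between 0.13 and 0.20 with these 3 genes, and Bcl2l11 between -0.03 and 0.07. Mcl1 and Bcl2a1b had 0.50 (0.40), Bcl2 and Bcl2a1b 0.45 (0.32), and Bcl2l1 and Bcl2a1b -0.23 (-0.12), the lowest of the 45 pairs over all mice. Without the 13 mice the lowest pair was Mcl1 and Bax at -0.33 (-0.16 over all mice). These are descriptions, since mice share strains, cell makeup and library depth.

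The genes most like each member were sought among all tested genes with a mean of at least 5 CPM, by Spearman rho over the 119 mice. Bcl2a1b was closest to its copies Bcl2a1a (0.87) and Bcl2a1d (0.82) and to Plek (0.82), which encodes pleckstrin, a protein of platelets and leukocytes. Bid was closest to Relb (0.64), an NF-kappaB subunit, Nfkbie (0.60), an inhibitor of NF-kappaB, and Traf2 (0.55), an adaptor of TNF receptors. Bax was closest to Bola2 (0.85), Rbm42 (0.84) and the ribosomal protein gene Rpl18 (0.83), Bak1 to Csnk2b, Tlnrd1 (both 0.75) and Ranbp3 (0.74), and Bbc3 to Usf2 (0.72), Lin37 and Washc1 (both 0.70). Mcl1 was closest to Stxbp3 (0.70), Tifa (0.65) and Ube2d3 (0.63), Bcl2l1 to Lrrc8a (0.66), Cenpb (0.64) and Mindy1 (0.63), and Bcl2 to Dennd1b (0.56), Arid4a (0.54) and Cmtm6 (0.53). Bcl2l11 reached 0.54 with Maml3, 0.53 with Proser1 and 0.51 with Zcchc4, and Pmaip1 0.47 with Pfkp, 0.45 with Hsdl1 and 0.44 with Oxsr1, the weakest likeness of the 10.

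Other genes of the pathway were read from lists drawn up by function. In the survival contrast 0 genes passed among 13 tested of the rest of the BCL2 family, 12 of the apoptosome and caspases, 9 inhibitors of apoptosis (IAPs), 9 mitochondrial partners, 9 regulators of MCL1 turnover, 15 of the p53 axis and 11 of the death receptors. At an unadjusted p under 0.05 edgeR placed 2 genes of the rest of the family, 4 IAP genes and 2 of the p53 axis. The apoptosome, mitochondrial, MCL1 turnover and death receptor lists had 0 such genes. Over all genes 1541 of 17091 were so placed. All 9 IAP genes differed between strains, led by Naip1 (F = 5.01), one of several similar Naip copies whose reads may be divided among them, and Birc2 (F = 4.66), which encodes cIAP1. So did 13 of 16 genes of the p53 axis, led by Trp73 (F = 8.08), which encodes the p53 relative p73, and 10 of 13 of the rest of the family, led by Bcl2a1d (F = 5.50) and Bcl2l14 (F = 5.05). These are to be read against the 69% of all genes that passed.

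Along lymphocyte level 11 of 13 genes of the rest of the family passed, 5 higher and 6 lower, where 53.7% of all genes did, 23.2% higher and 30.5% lower. Over all genes the share was 22.1% without the 13 lymphocyte-rich mice, and these lists were not counted there. Bcl2l14 rose by 0.65 ± 0.07, while the guardian Bcl2l2 (BCL-W) had a slope of -0.19 ± 0.02, the effector relative Bok -0.28 ± 0.06 and Bnip3, a mitophagy gene, -0.29 ± 0.07. Of 11 death receptor genes 7 passed, 4 higher and 3 lower. Fasl, the death ligand of cytotoxic lymphocytes, rose by 0.79 ± 0.05, Fas by 0.37 ± 0.04 and Tnfsf10 (TRAIL) by 0.38 ± 0.05, and Tnfrsf1a had a slope of -0.18 ± 0.03. Of 15 p53 axis genes 5 were higher, among them Trp53inp1 (0.21 ± 0.04), and 4 lower, among them Cdkn1a (p21, -0.20 ± 0.05). Of the MCL1 regulators 6 of 9 were lower, those with the lowest p being Btrc (-0.09 ± 0.02) and Dusp6 (-0.20 ± 0.04). The deubiquitinases Usp13 (-0.41 ± 0.11) and Usp9x (-0.08 ± 0.02) were also lower, and the ubiquitin ligase gene Fbxw7 was higher (0.13 ± 0.02). The apoptosome list had 5 higher and 1 lower, Casp6 (-0.19 ± 0.03), the IAP list 5 higher, and the mitochondrial list 2 lower, Mff and Vdac1.

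Along myeloid level 6 of 9 IAP genes passed, 5 of them higher, where 20% of all genes did. Birc2 rose by 1.29 ± 0.26 (edgeR quasi-likelihood test, adjusted p = 0.000126), Birc3, which encodes cIAP2, by 1.13 ± 0.25 (adjusted p = 0.000293) and Naip1 by 1.08 ± 0.19 (adjusted p = 7.55e-06), and Birc6 had a slope of -0.23 ± 0.06. The median slope of the list was 0.39, where it was -0.04 over all genes. Among the others, the p53 target Gdf15 rose by 0.77 ± 0.17, and Huwe1, a ubiquitin ligase of MCL1, had a slope of -0.28 ± 0.05.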

How the data were processed

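RNA was extracted from whole tumours and made into strand-specific mRNA libraries, per the labels' protocols. The authors deposited a table of estimated counts per gene, made with kallisto 0.46.1 on GRCm38 per the submitters' processing notes, which also name DESeq and DESeq2. The annotation release is not given in the sources used here. A second deposited table held the same values and was not used. Counts were rounded and summed over the tumours of a mouse, since survival class belongs to the mouse. Of 167 columns, 165 matched 1 sample and 2 matched a mouse only. Symbols (35825 genes) came from the reference tables.

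edgeR 4.0.16 (R 4.3.3) was used with TMM scaling, filterByExpr and the robust quasi-likelihood test, two-sided, with Benjamini-Hochberg adjustment over all genes and a threshold of 0.05. Log2 CPM used a prior count of 2. limma 3.58.1 and DESeq2 1.42.0 were alternatives. Python 3.11.15 served for descriptions. The tests were checked on simulated data. Spearman likeness was sought among tested genes with a mean of at least 5 CPM, and the 3 closest were named, leaving out predicted genes and other members. From other pathway lists, genes past the threshold were named, at most 4 per list and direction by lowest p. Members and lists were chosen with earlier results of these data known. Alternatives that concern Umod, strain-marking genes, or mice of high lymphocyte level were chosen after seeing the data, apart from the strain test without libraries nearer to another strain. Labels give survival class as below or above the median. The p-values measure the spread between mice. The lowest count of any member in a mouse was 27, for Bcl2a1b.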

Additional observations from a re-analysis of the deposited data

Results flagged for a closer look

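In each of 14 strains with 4 to 10 mice, the highest and lowest mouse of each member was compared with the rest of its strain, as the gap to the nearest mouse over the whole range of log2 CPM (Dixon's ratio). Of 140 such groups 8 exceeded the 95% critical value, and chance alone flags about 5%. Bcl2 in mouse CC059-E2 was 49.01 CPM, where the other CC059 mice ran between 16.2 and 20.5 CPM (ratio 0.785). In the same mouse Bak1 was 41.6 CPM, where the others ran between 76.6 and 93.2 CPM (ratio 0.756). Bcl2 in mouse LAT-E2, the mouse with the lowest balance, was 5.79 CPM, where the other LAT mice ran between 16.3 and 22.8 CPM (ratio 0.756). Bcl2a1b in mouse LOX-E4, one of the 13 lymphocyte-rich mice, was 193 CPM, where the other LOX mice ran between 12.2 and 39.4 CPM (ratio 0.576). Bid in mouse LOX-F4 was 6.68 CPM, where the other LOX mice ran between 22.9 and 34.4 CPM (ratio 0.752). Bak1 in mouse Boon-I2 was 59.2 CPM, where the other Boon mice ran between 99.5 and 109.4 CPM (ratio 0.846). Bcl2l11 in mouse YID-C1 was 18.4 CPM, where the other YID mice ran between 49.4 and 55.98 CPM (ratio 0.887). Bid in mouse Rogan-E3 was 20.2 CPM, where the other Rogan mice ran between 12.3 and 13.3 CPM (ratio 0.835).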

How the results depend on the processing

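No paired analysis was possible because the labels number mice only by name, and numbers given in the order of the labels pair nothing. The count of 0 members in the survival contrasts held in every alternative run. The share of tested genes past the threshold in the survival contrast, 1.56% (267 genes), became 0% (0 genes) with limma-voom, 3.44% (1110 genes) with no filter on low counts, 0.728% (125 genes) without libraries with over 1% of another tissue, 0.852% of 17130 genes without mouse TAS-I1, 0.0347% (6 genes) within the strains with Umod and 3.07% (515 genes) within the others. Within strain, DESeq2 called 0.394% of genes (65) in place of 0%. For strain differences, 5 members passed with limma-voom (10385 of 20687 genes), against 8. Without the 13 mice of high lymphocyte level 5 passed too (11005 of 20246 genes), and within the strains with Umod 0 members and 12.5% of genes did. Leaving out 1 mouse number at a time gave 6 to 8 members and 51.5% to 66.2% of genes, against 69%. For lymphocyte level, 2 members and 13.8% of genes passed within the strains with Umod, and 2 members and 22.1% of genes without the 13 mice. For myeloid level, members past the threshold were 3 on macrophage level, 0 on neutrophil level (8.86% of genes), and 2 with lymphocyte level held, without libraries with over 1% of another tissue, within the strains with Umod (7.21% of genes) and without the 13 mice. With strain held, 6.68% of genes passed on myeloid level. For T cell level with B cell level held, 1 member and 9.68% of genes passed without the 13 mice, and 0 members and 0.175% of genes among them. For B cell level the counts were 0 members and 7.99% of genes without the 13 mice, and 0 members and 0.00702% of genes among them.

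Signs turned in 56 values. Of these, Bax (-0.056) and Bbc3 (-0.11) on lymphocyte level without the 13 mice had been called in all mice. So had Bid on B cell level with T cell level held, which was -0.022 without the 13 mice. On lymphocyte level without the 13 mice Bak1 (-0.031), Mcl1 (-0.033) and Pmaip1 (-0.18) turned too, and Pmaip1 within the strains with Umod (-0.11). In the survival contrast Bcl2l1 was 0.020 and Bak1 0.027 with limma-voom, Bcl2l1 0.070 and Pmaip1 0.069 without other tissue, Bak1 0.017 without TAS-I1, Bak1 0.070 and Bid -0.15 within the strains with Umod, and Pmaip1 0.14 within the others. Within strain Bcl2 was 0.0073 with limma-voom, 0.028 without other tissue, 0.39 with cell levels held and 0.099 without the 13 mice, and Bcl2l1 was -0.098 with cell levels held. On macrophage level Bcl2 was 0.097, Bcl2l1 -0.049, Bax -0.00061, Bbc3 0.017, Pmaip1 -0.24 and Bcl2l11 -0.0019. On neutrophil level Bcl2a1b was -0.068, Bak1 -0.022 and Bid 0.026. On myeloid level Bax was -0.068 and Bid 0.029 with strain held, Bax -0.0011 and Pmaip1 -0.086 with limma-voom, Bax -0.018 without other tissue, and Bax -0.010 without libraries nearer to another strain. Within the strains with Umod Bcl2 was 0.053, Bcl2l1 -0.033, Bax -0.13, Pmaip1 -0.56, Bcl2l11 -0.093 and Bid 0.17, and without the 13 mice Bcl2 was 0.0099, Bbc3 0.018 and Bid 0.19. On T cell level among the 13 mice Bak1 was -0.26, Pmaip1 0.37, Bcl2l11 0.028 and Bid -0.39. On B cell level without them Bax was -0.032, Bbc3 -0.0068, Bcl2a1b -0.0097, Bid -0.022 and Pmaip1 -0.048, and among them Bak1 0.063, Bbc3 -0.54, Bcl2a1b -1.07 and Bcl2l11 0.33. The causes were not tested.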
